A study of Mus musculus with 12 samples.

Results

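Small RNA of exosomes shed by mouse hepatocytes was compared after 16 weeks and after 4 weeks on a high-fat diet (HFD). All 4 libraries labelled 16wks HFD and all 4 labelled 4wks HFD were used, 8 of the 12 libraries of the series, and the 4 lean libraries on control treatment give levels for context only. Every library comes from primary mouse hepatocytes at passage 0 cultured with fetal bovine serum and glutamax in Williams' E medium, with RNA taken by a Zymo kit. The labels name no strain, sex or age, and are silent on whether each library is a different animal, so p-values measure the spread between these libraries, which may be technical. The table holds 1965 names of mature mouse miRNAs (prefix mmu, left off here). Of these, 7 were left out because their 16-week values look exchanged with the lean ones, which leaves 1958. A read of 523 of them was found in the 8 libraries, and 65 were found in every one.

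Exosomes are small vesicles that cells release and that carry RNA and protein to other cells. A miRNA is cut from a hairpin precursor, which can yield a mature strand from its 5′ arm (5p) and one from its 3′ arm (3p). The mature strand guides a silencing complex to messenger RNAs that pair with its seed, bases 2 to 8, so miRNAs that share a seed share many predicted targets. Hepatocyte exosome miRNAs have been studied as signals between liver, fat, muscle and macrophages in obesity.

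The miRNAs that moved most between 16 and 4 weeks, or that carried most of the reads, are shown first, 5′ to 3′, with the seed in capitals. The sequences and hairpin positions are those of RefSeq on GRCm38.p6, the mm10 assembly, and the genes around them those of GENCODE M21. The first set was higher at 16 weeks.
miR-101b-3p: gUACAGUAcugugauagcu
miR-802-3p: aCGGAGAGucuuugucacucag
miR-872-5p: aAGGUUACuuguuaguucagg
miR-3068-5p: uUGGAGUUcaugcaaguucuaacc
miR-511-3p: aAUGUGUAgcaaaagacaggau
miR-146a-5p: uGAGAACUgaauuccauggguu
miR-21a-5p: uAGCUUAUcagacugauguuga
The second set was lower at 16 weeks.
miR-6538: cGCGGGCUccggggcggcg
miR-6931-5p: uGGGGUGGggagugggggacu
miR-7242-3p: uGGCAGCUcggcucuacucugg
miR-5121: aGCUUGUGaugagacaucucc
miR-501-3p: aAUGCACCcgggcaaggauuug
No seed of the first set recurs in the second. miR-101b-3p has a close paralog, miR-101a-3p, with which it shares 15 bases in a row, from base 2 of the one and base 1 of the other.
miR-101a-3p: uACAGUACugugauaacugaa
The table lists miR-101a-3p at 0 reads in all 8 libraries, so reads that could come from either gene cannot be told apart here and the level of miR-101b-3p is uncertain in that respect.

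The deposited values are CPM, reads rescaled so that every library has the same total, and each proved to be a whole number of reads times the CPM of 1 read in all 1629 values above 0. The recovered depth differed widely between the groups. The 16-week libraries held 37544, 29151, 23240 and 20409 reads of the listed miRNAs, against 3871, 2335, 4464 and 3311 reads in the 4-week libraries, a ratio of the totals of 7.89. A single read therefore weighed 26.6 to 48.7 CPM in the 16-week libraries but 223.4 to 425.2 CPM in the 4-week ones. A miRNA without a read could still stand at up to 27.2 CPM in the 16-week group and 215 CPM in the 4-week group (3 reads over 4 libraries, counting error only). Depth moves with the diet group in every comparison below, and beyond the count model and the thinning described its part in the results was not tested.

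Of the 15 miRNAs of the hepatocyte list, 9 had a read, and their summed level was 535982 to 675630 CPM in the 16-week libraries, against 161580 to 369444 CPM in the 4-week ones. Of the reads of the list, miR-101b-3p alone held 68237 of 69740 at 16 weeks and 3669 of 3702 at 4 weeks. The sum thus mostly follows that 1 miRNA. Together, miR-101b-3p and miR-802-3p held 99.8% of the reads of the list at 16 weeks and 99.6% at 4 weeks, and the other 7 the rest. Among these 7, miR-122-5p, the defining hepatocyte miRNA, had 2 reads at 16 weeks and 0 at 4 weeks. Another liver miRNA, miR-192-5p, had 23, 51, 37 and 11 reads in the 16-week libraries, against 2, 1, 2 and 3 in the 4-week libraries, too few for the test. By CPM it ranged between 536 and 1743 in the 16-week libraries and between 425 and 900 in the 4-week ones, with overlap. Red blood cell markers were at 0 in both groups, but miR-486a-5p of that list was among the miRNAs left out and is not counted. Endothelial markers had 1 read at 16 weeks and 0 at 4 weeks, and muscle markers 0 at 16 weeks and 1 at 4 weeks. Neural markers had 63 reads at 16 weeks and 17 at 4 weeks. Their summed level was 410 to 925 CPM in the 16-week libraries and 256 to 2234 CPM in the 4-week ones, so the groups overlapped.

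The 16-week exosome profile was dominated by 1 miRNA far more than the 4-week profile. This was miR-101b-3p, of a family known for repressing the histone methyltransferase EZH2 in human cells. Its seed as listed differs from that of miR-101a-3p, and its targets were not tested. It took 65.8%, 66.6%, 57.6% and 52.7% of the miRNA reads at 16 weeks, against 16.0%, 21.24%, 36.9% and 27.4% at 4 weeks. Every 16-week library lay above every 4-week library. The mean share was 60.7 ± 6.69% in the 16-week and 25.4 ± 9.01% in the 4-week libraries (SD, n = 4 each), with a two-sided exact permutation p of 0.0286, the smallest that 4 against 4 libraries allow (70 assignments), and the same value after Benjamini-Hochberg adjustment over 4 such measures. Each library pools the RNA of many vesicles, so fewer vesicles with a miRNA and fewer copies per vesicle cannot be told apart.

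**Figure D1:**
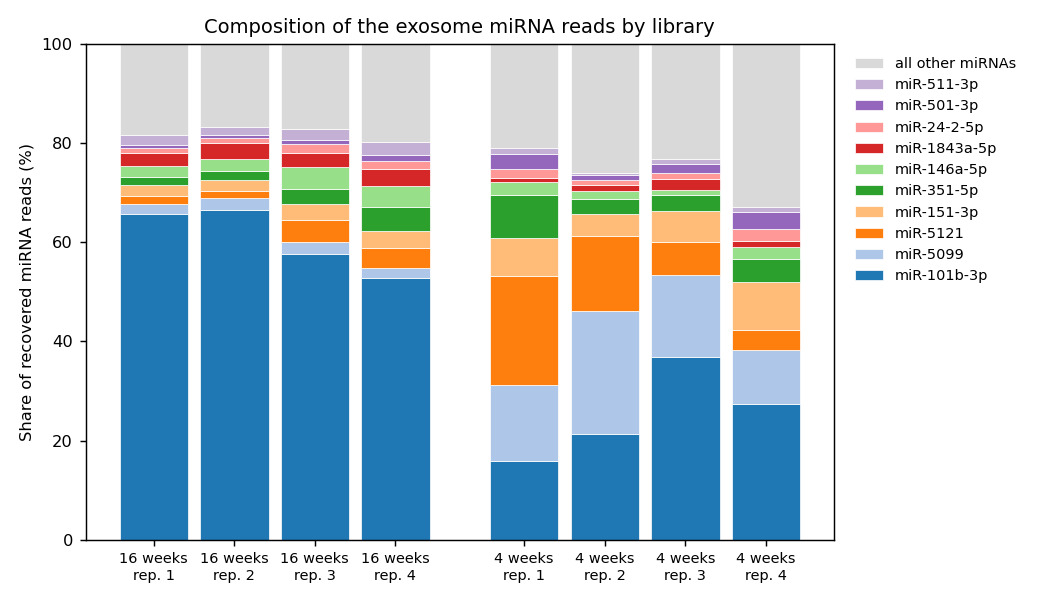
Share of the recovered miRNA reads (%, vertical axis) taken by the 10 miRNAs with the highest mean CPM, in each of the 4 libraries at 16 weeks and the 4 at 4 weeks; each bar is 1 library and grey is the sum of all other miRNAs. The miR-101b-3p segment reaches 52.7% to 66.6% at 16 weeks and 16.0% to 36.9% at 4 weeks, and the miR-5099 segment above it is wider in each 4-week library than in any at 16 weeks.

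The stacked bars show the rest of the profile in the same libraries. After miR-101b-3p, the leading miRNAs at 16 weeks were miR-146a-5p at a mean 3.32% of the reads, miR-1843a-5p at 3.00%, miR-5121 at 2.88%, miR-351-5p at 2.84% and miR-151-3p at 2.80%. At 4 weeks they were miR-5099 at 16.9%, miR-5121 at 11.9%, miR-151-3p at 6.98%, miR-351-5p at 4.93% and miR-1843b-3p at 2.62%. miR-5099 alone fell to a mean 2.21% of the reads at 16 weeks. The 10 most abundant miRNAs together took 82.0 ± 1.35% of the reads at 16 weeks and 74.2 ± 5.11% at 4 weeks (exact permutation p = 0.0286, also after adjustment). With miR-101b-3p taken out of the reads, the share of the 10 most abundant turned the other way, at 53.9 ± 6.26% at 16 weeks and 68.5 ± 7.63% at 4 weeks (exact permutation, adjusted p = 0.0571), and without any 1 of the 16-week libraries the adjusted p was 0.0571, the difference then being 7.34 to 8.36 percentage points.

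At equal depth the 16-week exosomes showed fewer miRNAs. Thinned to 2335 reads, the depth of the shallowest library, the expected number of miRNAs with a read was 87.8, 90.9, 95.7 and 106.6 in the 16-week libraries, against 134.4, 118, 119.7 and 149.4 in the 4-week libraries, with no overlap. The means were 95.3 ± 8.24 at 16 weeks and 130 ± 14.7 at 4 weeks (exact permutation p = 0.0286, also after adjustment). As deposited, the deeper 16-week libraries held 240 to 275 miRNAs each, against 118 to 173 at 4 weeks. The effective number of miRNAs, the exponential of the Shannon entropy, which counts miRNAs by how evenly they share the reads, was 8.30 ± 2.12 at 16 weeks and 18.6 ± 4.37 at 4 weeks (exact permutation p = 0.0286, also after adjustment). Neither difference passed the test without the reads of miR-101b-3p, and that of the effective number turned the other way. Without them the thinned libraries held 126.3 ± 4.42 miRNAs at 16 weeks and 132.6 ± 15.3 at 4 weeks (exact permutation, adjusted p = 0.60), and the effective number was 38.2 ± 2.50 at 16 weeks and 24.97 ± 8.82 at 4 weeks (exact permutation, adjusted p = 0.0857).

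Of the 1958 miRNAs, 53 had enough reads for edgeR's quasi-likelihood test on the recovered reads, scaled by the trimmed mean of M values (TMM). They held 97.3% of the reads at 16 weeks and 93.9% at 4 weeks. At a Benjamini-Hochberg adjusted p under 0.05, 24 passed (45.3% of those tested), of which 11 were higher at 16 weeks (20.8%) and 13 lower (24.5%). The other 29 passed in neither direction. The median log2 fold change of all 53 was 0.03. In 7 of the 53 every 16-week library lay above every 4-week one in CPM (13.2%), all among the 11 higher miRNAs, and in 11 every 16-week library lay below (20.8%), 10 of them among the 13 lower miRNAs. The filter kept miRNAs at about 804 CPM or more in at least 4 libraries. Of the 24 called, 16 reached that level in all 8 libraries, 2 in all libraries of the 16-week group only (miR-802-3p and miR-1948-5p, both higher) and 6 in all libraries of the 4-week group only (miR-6538, miR-3075-5p, miR-1843a-3p, miR-6931-5p, miR-7242-3p and miR-7678-3p, all lower). Of the 29 not called, 8 likewise reached it in all libraries of 1 group only, 5 of the 16-week group and 3 of the 4-week group. A miRNA can thus be tested through the group where it is high, so the counts describe the tested set and nothing more.

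The balance of higher and lower calls depended on the scaling between libraries. TMM gave 11 higher and 13 lower, relative log expression size factors 13 and 12, and TMM with singleton pairing 14 and 11. Scaling to the library totals alone gave 6 higher and 15 lower, with a median log2 fold change of -0.26, and scaling to the totals without miR-101b-3p gave 17 higher and 8 lower, with a median of 0.64. All 24 called miRNAs kept their direction under these 5 scalings, and 14 of them, 6 higher and 8 lower, passed the test under each. limma on log2(CPM + 1), in place of the count test, called 18 of the 24, 6 of the higher and 12 of the lower.

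**Figure D2:**
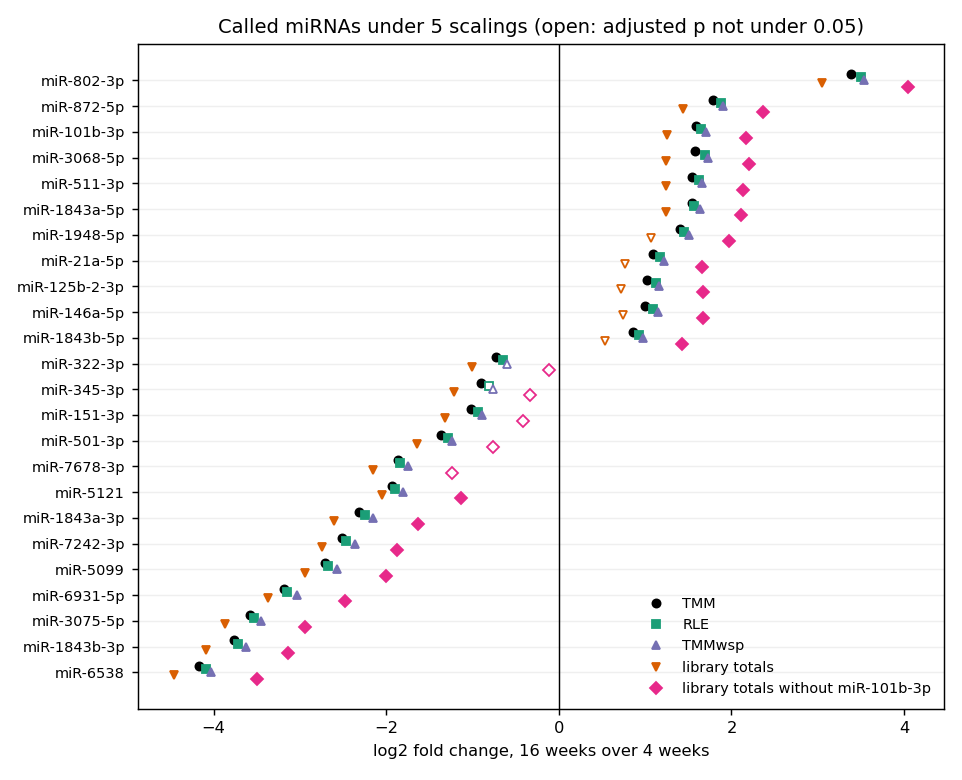
log2 fold change, 16 weeks over 4 weeks (horizontal axis), of the 24 called miRNAs under 5 scalings between libraries, 1 symbol per scaling; an open symbol has an adjusted p of 0.05 or more. No symbol crosses 0, the library totals lie furthest left and the totals without miR-101b-3p furthest right, and the open symbols sit in the rows nearest to 0 and in that of miR-7678-3p.

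The plot of the 5 scalings separates 2 kinds of call. The 6 higher at each scaling were miR-802-3p, miR-872-5p, miR-101b-3p, miR-3068-5p, miR-511-3p and miR-1843a-5p. The 8 lower at each scaling were miR-6538, miR-1843b-3p, miR-3075-5p, miR-6931-5p, miR-5099, miR-7242-3p, miR-1843a-3p and miR-5121. Of these 14, miR-802-3p had reached the filter level in all libraries of the 16-week group only and 5 of the 8 lower ones (miR-6538, miR-3075-5p, miR-6931-5p, miR-7242-3p and miR-1843a-3p) in all of the 4-week group only, which no scaling changes. The other 10 lay between -1.86 and 1.41 under TMM on the log2 scale and missed the threshold under at least 1 scaling.

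**Figure D3:**
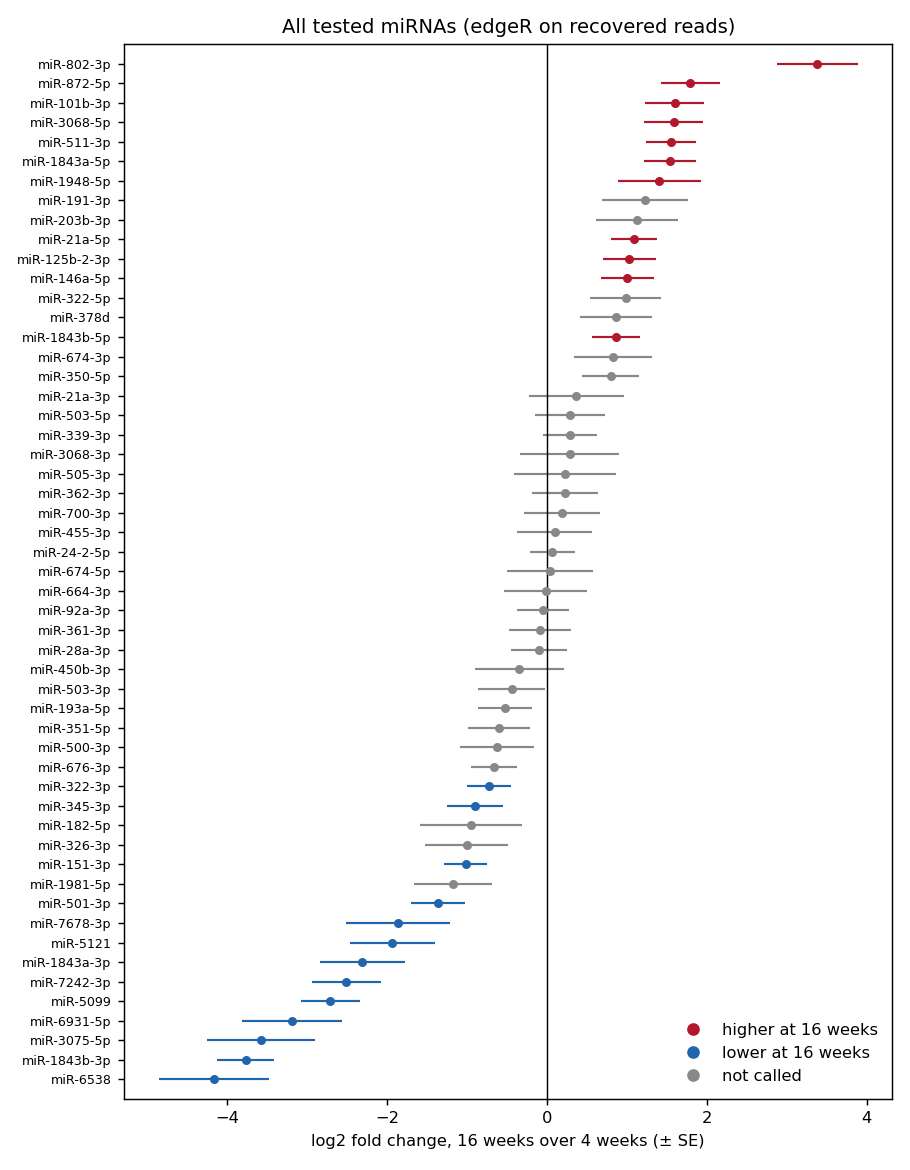
log2 fold change, 16 weeks over 4 weeks, with its standard error (horizontal axis), of all 53 tested miRNAs, ordered by size; red was higher at 16 weeks, blue lower and grey not called. The values run between 3.38 for miR-802-3p and -4.16 for miR-6538, with the grey ones around 0.

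Plotted by size under TMM, 7 of the 13 lower miRNAs lay at or under -2.31 on the log2 scale. Among the higher ones the largest change was 3.38 and the next 1.79.

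miR-802-3p rose most at 16 weeks. This is the 3p strand of a hairpin at chr16:93369720-93369816, whose 5p strand is known in mice to rise in the obese liver. Here that 5p strand took a mean 0.36% of the reads of both arms at 16 weeks and 0% at 4 weeks. The values that follow are those of miR-802-3p. It stood at 17901, 10284, 6246 and 11540 CPM in the 16-week libraries, against 2052, 1701, 447 and 1499 CPM in the 4-week libraries. The lowest 16-week library lay above the highest 4-week one. By edgeR the log2 fold change was 3.38 ± 0.50 (SE, n = 4 each, adjusted p = 9.4e-05), resting on 1357 reads at 16 weeks and 19 at 4 weeks. In lean libraries the mean was 4951 CPM.

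miR-101b-3p, encoded in an intron of Rcl1 (hairpin chr19:29135279-29135375), had the largest gain in reads. By CPM it stood at 656985, 663011, 572235 and 523712 in the 16-week libraries, against 158502, 210884, 368327 and 271664 in the 4-week libraries. The groups were apart, and the 4-week libraries spread over a wider range than the 16-week ones. Its log2 fold change was 1.59 ± 0.37 (SE, n = 4 each, adjusted p = 0.0025), and the lean libraries averaged 619422 CPM.

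2 further called miRNAs, miR-872-5p and miR-3068-5p, were higher at 16 weeks than at 4 weeks in a similar measure. miR-872-5p, in an intron of Ift74 (hairpin chr4:94665157-94665237), was at 7767, 6082, 5647 and 6038 CPM at 16 weeks, against 2052, 850, 3127 and 2999 CPM at 4 weeks, with a log2 fold change of 1.79 ± 0.37 (SE, n = 4 each, adjusted p = 0.0010). miR-3068-5p, in an intron of Alkbh1 and within a stretch also annotated as a small nucleolar RNA (hairpin chr12:87437679-87437757), was at 29232, 14316, 11380 and 15776 CPM at 16 weeks, against 6412, 7653, 6701 and 9295 CPM at 4 weeks. Neither miRNA had overlapping groups, and the first 16-week library was far above the other 16-week libraries for miR-3068-5p. Its log2 fold change was 1.58 ± 0.36 (SE, n = 4 each, adjusted p = 0.0025) and 1.02 (adjusted p = 0.014) without that library. Lean libraries averaged 7425 CPM of miR-872-5p and 23477 CPM of miR-3068-5p. The 16-week means were below these, at 6383 and 17676 CPM.

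Both tested members of the leukocyte list rose at 16 weeks, where 20.8% of all tested miRNAs did. miR-511-3p comes from an intron of Mrc1, the macrophage mannose receptor gene (hairpin chr2:14261003-14261081). It stood at 21013, 15375, 21989 and 26487 CPM at 16 weeks, against 10516, 3401, 10721 and 10495 CPM at 4 weeks, with no overlap and a log2 fold change of 1.55 ± 0.31 (SE, n = 4 each, adjusted p = 0.0010). The second 4-week library was lower than the other 3 of its group. miR-146a-5p (hairpin chr11:43374397-43374461) is induced by NF-κB and dampens Toll-like receptor signalling through Traf6 and Irak1. It stood at 22955, 25557, 43294 and 40364 CPM at 16 weeks, against 26417, 17007, 10275 and 24888 CPM at 4 weeks. Here the groups overlapped, the first 4-week library lying above the 2 lowest 16-week libraries and the fourth above the lowest. The log2 fold change was 1.00 ± 0.33 (SE, n = 4 each, adjusted p = 0.021), and the call was lost with library totals (0.75, adjusted p = 0.093) and without replicate 3 of the 16-week group (0.74, adjusted p = 0.088). Lean libraries averaged 4221 CPM of miR-146a-5p and 9740 CPM of miR-511-3p.

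The rest of the leukocyte list was thin, and miR-155-5p of that list, among the miRNAs left out, is not counted in it. Of its 13 listed miRNAs, 6 had a read in the 8 libraries, and their summed level was 41718 to 67679 CPM in the 16-week libraries, against 20833 to 38981 CPM in the 4-week ones. The defining markers miR-223 and miR-142a were at 0 in all 8 libraries, and miR-150-3p had 0 reads at 16 weeks and 2 at 4 weeks. The other arm of the Mrc1 hairpin, miR-511-5p, had too few reads for the test, at 649 to 1862 CPM in the 16-week libraries and 223.4 to 2699 CPM in the 4-week ones. The part of other cells in these differences was not tested.

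miR-21a-5p, a miRNA of many tissues known for repressing Pdcd4, rose as well. It lies in an exon of Vmp1 (hairpin chr11:86584067-86584158). It was at 7501, 6628, 9027 and 9446 CPM at 16 weeks, against 3847, 2976, 4914 and 7196 CPM at 4 weeks, and only the fourth 4-week library reached into the range of the 16-week group. The log2 fold change was 1.09 ± 0.29 (SE, n = 4 each, adjusted p = 0.0063), which missed the threshold with library totals (0.77, adjusted p = 0.13). The 1 tested member of the stellate cell and fibroblast list, miR-125b-2-3p, which is the lesser strand of a miR-125b hairpin, was at 8113, 4681, 6417 and 6330 CPM at 16 weeks, against 4360, 3827, 3127 and 4198 CPM at 4 weeks. Its groups did not overlap, with a log2 fold change of 1.03 ± 0.33 (SE, n = 4 each, adjusted p = 0.021). Without the first 16-week library it was 0.68 (adjusted p = 0.072), and with library totals 0.72 (adjusted p = 0.19). The summed level of that list was 4988 to 8405 CPM in the 16-week libraries, against 3127 to 4873 CPM in the 4-week ones, and 5 of its 17 miRNAs had a read, so a part of these cells in the difference was not tested.

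miR-1948-5p was the least firm of the larger increases. It stood at 2686, 5706, 5176 and 3116 CPM at 16 weeks, against 256, 2551, 3350 and 1799 CPM at 4 weeks, the first 4-week library holding 1 read. The third 4-week library lay above 2 of the 16-week ones, and the log2 fold change was 1.41 ± 0.51 (SE, n = 4 each, adjusted p = 0.036). By edgeR the call was lost without replicate 2 or 3 of the 16-week group (0.97 and 1.14, adjusted p = 0.18 and 0.13) and without replicate 1 or 4 of the 4-week group (1.05 and 1.32, adjusted p = 0.10 and 0.062). Without replicate 3 of the 4-week group the change was 2.07 (adjusted p = 0.016).

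**Figure D4:**
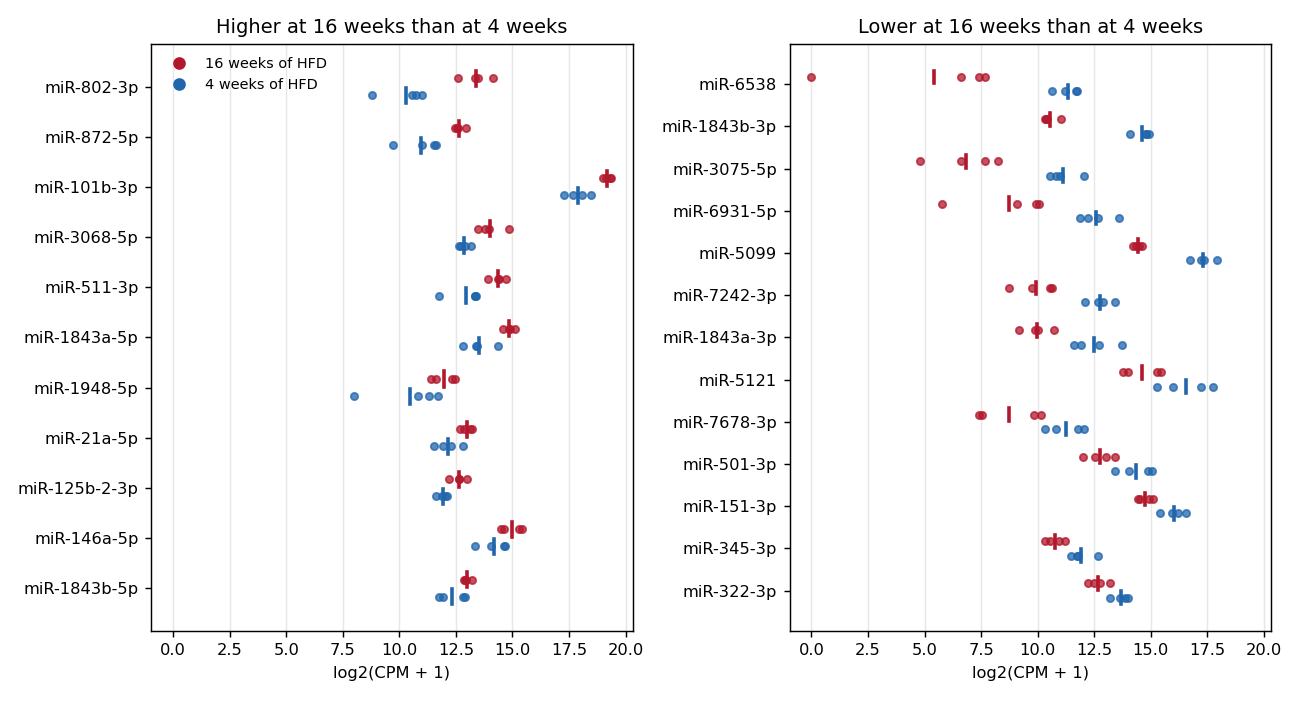
log2(CPM + 1) (horizontal axis) of each called miRNA in each of the 4 libraries at 16 weeks (red) and the 4 at 4 weeks (blue), with a vertical bar at the mean of each group; the left panel holds the 11 higher at 16 weeks and the right panel the 13 lower. Red points lie right of blue ones for miR-802-3p and left of them for miR-6538, which had no read in 1 of the 16-week libraries.

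The levels by library show the deepest losses among miRNAs that were scarce at 16 weeks. miR-6538 (hairpin chr12:26414901-26415010, in an intron of Rnf144a) fell most. It had 0, 6, 4 and 2 reads at 16 weeks, or 0, 205, 171 and 97.4 CPM, against 13, 8, 7 and 8 reads at 4 weeks, or 3334, 3401, 1564 and 2399 CPM. The log2 fold change was -4.16 ± 0.69 (SE, n = 4 each, adjusted p = 0.00026) and -4.83 without the second 16-week library (adjusted p = 0.00084). The mature sequence is 94.7% G and C, the highest of the tested miRNAs that have a sequence in RefSeq.

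miR-3075-5p, studied in mice for an effect on insulin sensitivity, also fell, by less than miR-6538. Reads of miR-3075-5p were 1, 6, 7 and 2 at 16 weeks, or 26.6, 205, 299.5 and 97.4 CPM, against 7, 10, 9 and 5 reads at 4 weeks, or 1795, 4252, 2010 and 1499 CPM. The highest 16-week level was below the lowest 4-week level, although the 16-week libraries were the deeper ones. The log2 fold change was -3.58 ± 0.68 (SE, n = 4 each, adjusted p = 0.00069), and -2.92 without the second 4-week library (adjusted p = 0.0043). Its lean mean was 132 CPM. It belonged to the list for lipid and insulin metabolism, of which 3 of 34 miRNAs had a read and 2 were tested. The other, miR-182-5p, was at 160, 444, 1198 and 1704 CPM at 16 weeks, against 1539, 1276, 893 and 4198 CPM at 4 weeks, with overlapping groups and a log2 fold change of -0.95 ± 0.64 (SE, n = 4 each, adjusted p = 0.23).

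miR-6931-5p and miR-7242-3p fell without overlap of the groups. miR-6931-5p (hairpin chr11:102999848-102999921, in an intron of Dcakd) was at 53.2, 547, 1070 and 974 CPM at 16 weeks, against 6412, 12330, 3797 and 4798 CPM at 4 weeks, a log2 fold change of -3.19 ± 0.62 (SE, n = 4 each, adjusted p = 0.00083), or -2.43 without the second 4-week library (adjusted p = 0.0097). miR-7242-3p (hairpin chr9:67729499-67729577) was at 426, 854, 1497 and 1607 CPM at 16 weeks, against 4360, 11054, 6478 and 7496 CPM at 4 weeks, a log2 fold change of -2.51 ± 0.43 (SE, n = 4 each, adjusted p = 0.00033). The second 4-week library was the highest for both. Reads of miR-7242-3p numbered 109 at 16 weeks and 97 at 4 weeks, nearly level although the depths differed. The part of depth in these changes was not tested. Lean libraries averaged 404 CPM of miR-6931-5p and 1544 CPM of miR-7242-3p. miR-6931-5p was the 1 tested member of the numbered block of miRNAs from miR-6896 to miR-7094, of which 113 of 403 names had a read. Their summed level was 2686 to 4333 CPM in the 16-week libraries, against 11168 to 19558 CPM in the 4-week ones, with 361 reads at 16 weeks and 193 at 4 weeks. Of these reads, miR-6931-5p itself held 63 at 16 weeks and 87 at 4 weeks. All miRNAs below the filter, whatever their name, held 2.67% of the reads at 16 weeks and 6.05% at 4 weeks.

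The most abundant miRNAs to fall were miR-5099, miR-5121 and miR-151-3p. miR-5099 was at 18938, 22653, 25283 and 20937 CPM at 16 weeks, against 152347, 246599, 164843 and 108546 CPM at 4 weeks. The groups were far apart and the 16-week libraries close together. This is a log2 fold change of -2.71 ± 0.37 (SE, n = 4 each, adjusted p = 6.0e-05), with 2396 reads at 16 weeks and 2274 at 4 weeks, so the read numbers were nearly level although the depths differed. Lean libraries held a mean 37479 CPM.

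miR-5121 lies within Snord33, a small nucleolar RNA gene of Rpl13a (hairpin chr7:45126918-45126991), so its reads and those of Snord33 cannot be told apart by position. It was at 16385, 14008, 44364 and 39829 CPM at 16 weeks, against 217492, 151361, 65446 and 39280 CPM at 4 weeks. The fourth 4-week library lay below the 2 highest 16-week libraries, and the 4-week group spread widest. The log2 fold change was -1.93 ± 0.53 (SE, n = 4 each, adjusted p = 0.0069). It was -1.44 without the first 4-week library (adjusted p = 0.061) and -1.44 without the second (adjusted p = 0.056). miR-151-3p was at 22236, 23302, 31444 and 34619 CPM at 16 weeks, against 75404, 43367, 62542 and 95952 CPM at 4 weeks, without overlap. Its log2 fold change was -1.02 ± 0.27 (SE, n = 4 each, adjusted p = 0.0063), and -0.42 when scaled to the totals without miR-101b-3p (adjusted p = 0.35). Means of miR-151-3p were 27900 CPM at 16 weeks and 29268 CPM in lean libraries.

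miR-7678-3p and miR-345-3p fell too, with calls that were lost when single libraries were left out. miR-7678-3p (hairpin chr2:164354313-164354383, in an exon of Slpi) was at 186, 1128, 171 and 925 CPM at 16 weeks, against 1282, 4252, 3574 and 1799 CPM at 4 weeks, a log2 fold change of -1.86 ± 0.65 (SE, n = 4 each, adjusted p = 0.029). This rests on 63 reads of miR-7678-3p at 16 weeks and 37 at 4 weeks. Its groups were apart by a small margin, and the change was -1.36 without the second 4-week library (adjusted p = 0.17) and -1.54 without the third (adjusted p = 0.16). miR-345-3p (hairpin chr12:108836973-108837068, in an exon of Slc25a47) was at 1490, 1264, 2353 and 1948 CPM at 16 weeks, against 2821, 3401, 3574 and 6597 CPM at 4 weeks. Its groups did not overlap. The log2 fold change of -0.90 ± 0.35 (SE, n = 4 each) passed by edgeR at an adjusted p of 0.048, and the call was lost in 15 of 20 alternatives. Among them were the fits without replicate 4 of the 16-week group (-0.79, adjusted p = 0.078) and without replicate 1, 2, 3 or 4 of the 4-week group (-0.93, -0.68, -0.76 and -0.63, adjusted p = 0.054, 0.18, 0.15 and 0.26).

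The miR-1843 hairpins changed in opposite directions on their 2 arms. The 5p strands were higher at 16 weeks and the 3p strands lower, for both miR-1843a and miR-1843b. The strands are shown because their likeness bears on how reads are assigned.
miR-1843a-5p: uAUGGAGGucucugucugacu
miR-1843b-5p: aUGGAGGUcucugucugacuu
miR-1843a-3p: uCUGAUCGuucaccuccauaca
miR-1843b-3p: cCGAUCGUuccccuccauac
The 5p strands share 20 of their 21 bases in a row, shifted by 1 base, while the longest stretch shared by the 3p strands is 9 bases. Reads of the 5p strands could therefore be split between the names, and their separate levels are uncertain. miR-1843b lies in an intron of Cop1 and within Scarna3a, a small Cajal body RNA gene (hairpin chr1:159340358-159340423). miR-1843a lies in an intron of Dcaf5 and within Scarna3b (hairpin chr12:80391613-80391677). Reads of these hairpins and of those Cajal body RNA genes cannot be told apart by position.

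miR-1843b-3p had the lowest adjusted p of the 53 tested miRNAs. It was at 1330, 2118, 1283 and 1363 CPM at 16 weeks, against 17184, 31037, 27920 and 27886 CPM at 4 weeks, a log2 fold change of -3.77 ± 0.35 (SE, n = 4 each, adjusted p = 7.4e-07). miR-1843b-5p was at 7315, 7961, 7743 and 9495 CPM at 16 weeks, against 3847, 3401, 7594 and 7196 CPM at 4 weeks, a log2 fold change of 0.86 ± 0.30 (SE, n = 4 each, adjusted p = 0.028). The 3p groups were more than an order of magnitude apart by their means, 1524 CPM for the 16-week libraries and 26007 CPM for the 4-week ones, whereas the 5p groups overlapped. The 5p call was lost with library totals (0.54, adjusted p = 0.31), without replicate 1, 2 or 3 of the 16-week group (0.72, 0.67 and 0.75, adjusted p = 0.081, 0.094 and 0.072) and without replicate 4 of the 4-week group (0.95, adjusted p = 0.054).

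Both strands of miR-1843a passed the test under each of the 5 scalings. miR-1843a-5p was at 24444, 30477, 29005 and 35398 CPM at 16 weeks, against 7181, 11054, 20996 and 10795 CPM at 4 weeks, a log2 fold change of 1.54 ± 0.32 (SE, n = 4 each, adjusted p = 0.0012). miR-1843a-3p was at 1702, 957, 1027 and 584 CPM at 16 weeks, against 3078, 13605, 6701 and 3898 CPM at 4 weeks, a log2 fold change of -2.31 ± 0.54 (SE, n = 4 each, adjusted p = 0.0025). Neither strand had overlapping groups, and the 3p change was -1.46 without the second 4-week library (adjusted p = 0.046).

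The share of the 5p strand in the reads of both arms does not depend on any scaling between libraries. In miR-1843b it was 84.6%, 79.0%, 85.8% and 87.4% at 16 weeks, against 18.3%, 9.88%, 21.4% and 20.5% at 4 weeks. By the reads as assigned, the prevailing strand was thus the 5p at 16 weeks and the 3p at 4 weeks. Since 5p reads could be split between the miR-1843a and miR-1843b names, the share of each hairpin is uncertain in that respect. Lean libraries averaged 9626 CPM of miR-1843b-5p and 2933 CPM of miR-1843b-3p. The 5p share in miR-1843a was 93.5%, 97.0%, 96.6% and 98.4% at 16 weeks, against 70%, 44.8%, 75.8% and 73.5% at 4 weeks. Each 4-week library held 81 to 159 reads of the miR-1843b arms and at least 40 of the miR-1843a arms. The mean 5p shares were 84.2 ± 3.67% in the 16-week libraries and 17.5 ± 5.26% in the 4-week ones for miR-1843b (SD, n = 4 each). For miR-1843a they were 96.4 ± 2.06% in the 16-week libraries and 66.0 ± 14.3% in the 4-week ones (SD, n = 4 each).

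**Figure D5:**
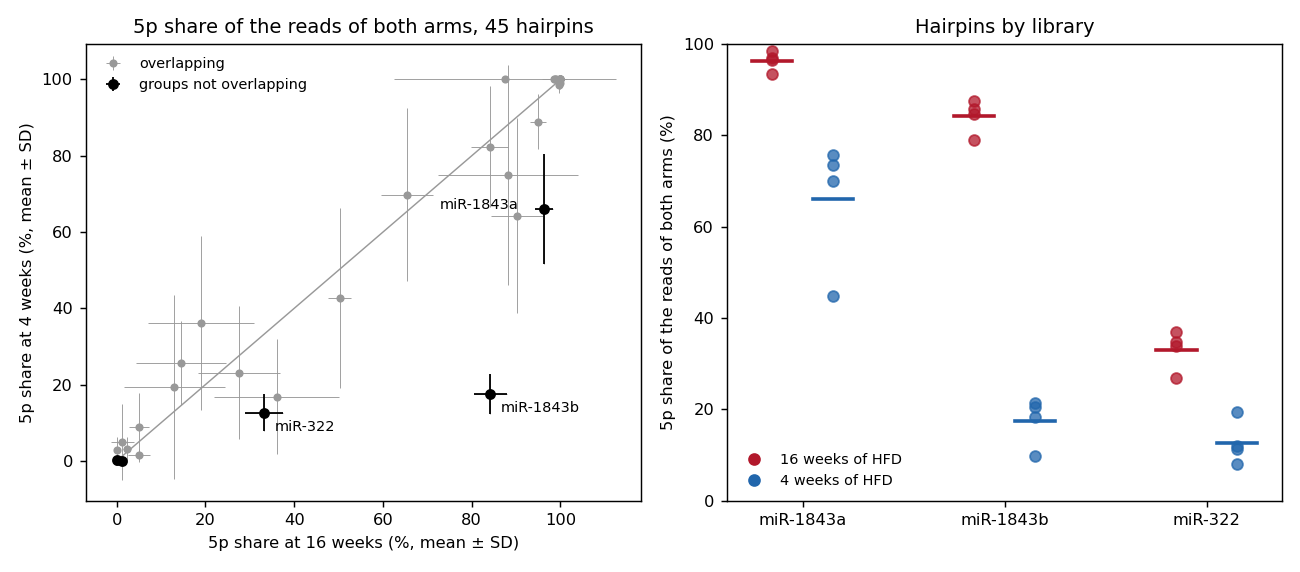
Left, mean 5p share of the reads of both arms (%, ± SD over 4 libraries) at 16 weeks (horizontal axis) and at 4 weeks (vertical axis) for 45 hairpins, black where the groups did not overlap; the line marks equal shares. Right, the 5p share (%) in each library of miR-1843a, miR-1843b and miR-322 at 16 weeks (red) and 4 weeks (blue), with bars at the means, where miR-1843b averages 84.2% at 16 weeks and 17.5% at 4 weeks.

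Most hairpins lay near the line of equal shares in the plot of arm shares. Some had reads on 1 arm only in every library, such as miR-151, miR-339 and miR-872. Their share is 0% or 100% in both groups, and they can show no difference at this depth. Of 45 hairpins with reads enough on both arms together, these included, 0 had an adjusted p under 0.05 (0.0%). The lowest adjusted p was 0.26, since no single exact permutation test of 4 against 4 libraries can go below 0.0286. An unadjusted p of 0.0286 was reached by 5 hairpins, those whose groups did not overlap (11.1% of 45). These were miR-1843a, miR-1843b and miR-322, plus miR-101b, with a 5p share of 0.024% at 16 weeks and 0.16% at 4 weeks, and miR-455, with 1.32% at 16 weeks and 0% at 4 weeks. For miR-455 this was 9 of 818 reads at 16 weeks and 0 of 117 at 4 weeks, which allows a share of up to 2.56%, so the depth at 4 weeks cannot show a lower share there. The 5p share of miR-101b rests on 13 reads at 16 weeks and 5 at 4 weeks.

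The miR-322 to miR-503 cluster of the X chromosome, known in mouse for slowing the cell cycle and for muscle differentiation, had 6 tested members, of which 0 were higher at 16 weeks and 1 was lower, against 20.8% higher and 24.5% lower among all tested miRNAs. Their median log2 fold change was -0.39, against 0.03 over all tested miRNAs. miR-322-3p was at 5745, 4715, 6973 and 9446 CPM at 16 weeks, against 14876, 9354, 12732 and 16492 CPM at 4 weeks, a log2 fold change of -0.73 ± 0.27 (SE, n = 4 each, adjusted p = 0.041). The fourth 16-week library just overlapped the second 4-week one. Without replicate 1, 2, 3 or 4 of the 4-week group the call was lost (-0.56, -0.57, -0.59 and -0.64, adjusted p = 0.10, 0.075, 0.14 and 0.13). The 5p strand, miR-322-5p, was at 3351, 1743, 3722 and 4820 CPM at 16 weeks, against 3591, 1276, 1117 and 2099 CPM at 4 weeks, with a log2 fold change of 0.98 ± 0.44 (SE, n = 4 each, adjusted p = 0.075).

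The share of the 5p strand of miR-322 was 36.8%, 26.98%, 34.8% and 33.8% at 16 weeks, against 19.44%, 12%, 8.06% and 11.3% at 4 weeks. The groups were apart, with means of 33.1 ± 4.27% in the 16-week libraries and 12.7 ± 4.81% in the 4-week ones (SD, n = 4 each). miR-351-5p, the most abundant member of the cluster, was at 16305, 17220, 30674 and 48690 CPM at 16 weeks, against 87202, 29337, 32611 and 46777 CPM at 4 weeks. It overlapped between the groups, with a log2 fold change of -0.60 ± 0.39 (SE, n = 4 each, adjusted p = 0.21), whose sign turned when scaled to the totals without miR-101b-3p (0.087). miR-503-5p, miR-503-3p and miR-450b-3p also overlapped and had log2 fold changes of 0.29, -0.44 and -0.35 with adjusted p-values of 0.69, 0.43 and 0.69.

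Of the cluster in the introns of Clcn5, also on the X chromosome, 3 miRNAs were tested and miR-501-3p fell (hairpin chrX:7241243-7241351). It was at 4070, 5979, 8257 and 11101 CPM at 16 weeks, against 29751, 11054, 16976 and 33583 CPM at 4 weeks. The fourth 16-week library and the second 4-week library met, and the other libraries were apart. It had a log2 fold change of -1.37 ± 0.34 (SE, n = 4 each, adjusted p = 0.0036), and -0.76 when scaled to the totals without miR-101b-3p (adjusted p = 0.096). miR-500-3p, which carries the same seed and differs from miR-501-3p at 4 bases, was at 1543, 1743, 2011 and 1655 CPM at 16 weeks, against 5899, 425, 3350 and 2999 CPM at 4 weeks, with a log2 fold change of -0.63 ± 0.46 (SE, n = 4 each, adjusted p = 0.28). The second 4-week library held 1 read of it. miR-362-3p had a log2 fold change of 0.22 ± 0.41 (SE, n = 4 each, adjusted p = 0.74), which was -0.14 with library totals.

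Reads were also summed over miRNAs that share a seed. Mature sequences were found in RefSeq for 467 of the 523 detected miRNAs, holding 92.1% of their reads, and they carried 437 seeds, of which 25 were shared by several detected miRNAs. Of 49 seeds tested by edgeR, 21 passed at an adjusted p under 0.05 (42.9%), 9 higher at 16 weeks and 12 lower. Since 41 of the 49 seeds held 1 detected miRNA each, most of these tests repeat those of the miRNAs. The seed of miR-1843b-5p missed the threshold (adjusted p = 0.077 by edgeR), whereas those of miR-676-3p and miR-1981-5p, neither called as a miRNA, passed as lower at 16 weeks (adjusted p = 0.045 and 0.044). Each of these seeds holds 1 detected miRNA, so its reads are the same in both tests, and the set tested and the scaling differ. The tested reads per library were 2186 to 4242 for miRNAs and 1491 to 3206 for seeds at 4 weeks. At 16 weeks they were 19754 to 36582 for miRNAs and 18575 to 35034 for seeds. The seed AUGCACC of miR-501-3p and miR-500-3p together had a log2 fold change of -1.34 ± 0.33 (SE, n = 4 each, adjusted p = 0.0042). The seed AGCAGCA, that of the miR-15 and miR-16 family and here of miR-322-5p, miR-195a-5p and miR-6342, had one of 0.57 ± 0.39 (SE, n = 4 each, adjusted p = 0.24). For UGACCUA, the seed of miR-192-5p and miR-215-5p, it was 1.06 ± 0.54 (SE, n = 4 each, adjusted p = 0.12), with 217 reads at 16 weeks and 15 at 4 weeks. The miR-215 hairpin had 73, 13, 8 and 5 reads of both arms in the 16-week libraries, so its part came mostly from the first.

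Base composition and place are given as a description, with no test. The median G and C content of the mature sequence was 41.9% for the 10 higher miRNAs with a sequence, 56.8% for the 10 lower ones and 50.0% for the 49 tested ones with a sequence. Of those 49, 8 lie within an annotated small nucleolar or Cajal body RNA gene, among them 3 of the 10 higher and 3 of the 10 lower. On the X chromosome lay 0 of the higher, 2 of the lower and 12 of the 49.

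The other lists had few miRNAs with enough reads. In the hepatocyte list 2 miRNAs were tested, miR-101b-3p and miR-802-3p, both higher, as were 20.8% of all tested miRNAs. In the epithelial and cholangiocyte list 5 of 16 had a read and the 1 tested, miR-182-5p, was not called. miR-24-2-5p, the 1 tested member of the miR-23, miR-27 and miR-24 group, was at 11810, 11753, 16385 and 16019 CPM at 16 weeks, against 18723, 9779, 12732 and 24888 CPM at 4 weeks, with a log2 fold change of 0.06 ± 0.28 (SE, n = 4 each, adjusted p = 0.89). It turned to -0.25 with library totals and was negative without replicate 1, 2 or 3 of the 16-week group.

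miR-92a-3p, the 1 tested member of the miR-17-92 clusters, known for driving cell proliferation, was at 6596, 9430, 7144 and 8813 CPM at 16 weeks, against 4873, 8503, 10721 and 18291 CPM at 4 weeks, with a log2 fold change of -0.05 ± 0.33 (SE, n = 4 each, adjusted p = 0.91), whose sign changed with the scaling. The let-7, miR-30, miR-181, miR-34 and miR-15/16 lists and the Dlk1-Dio3 cluster had 0 tested members. Of the Dlk1-Dio3 cluster, 18 miRNAs had a read, and their summed level was 444 to 1112 CPM in the 16-week libraries, against 1701 to 5097 CPM in the 4-week ones, from 71 reads at 16 weeks and 54 at 4 weeks. These numbers do not count miR-299a-3p, miR-300-3p, miR-376b-3p and miR-434-3p of this cluster, which were left out. For the let-7 family the sums were 213 to 642 CPM in the 16-week libraries, against 769 to 1276 CPM in the 4-week ones, from 53 reads at 16 weeks and 14 at 4 weeks. All miRNAs below the filter together held 2.67% of the reads at 16 weeks and 6.05% at 4 weeks. A lower share at 16 weeks was thus not particular to the Dlk1-Dio3 and let-7 lists. Other lists overlapped, such as miR-15/16 at 718 to 1169 CPM in the 16-week libraries and 0 to 1799 CPM in the 4-week ones. These shares are of all reads, of which miR-101b-3p took a mean 60.7% at 16 weeks and 25.4% at 4 weeks.

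The 470 miRNAs below the filter held 2.44% to 3.21% of the reads of each 16-week library and 4.97% to 7.67% of each 4-week library. Of them, 226 were seen at 16 weeks only and 85 at 4 weeks only, and 159 in both groups. Of the 226, 225 were at or under the level that 0 reads at 4 weeks allows, so this depth cannot show whether they differ. Above that level stood miR-16-1-3p alone, with 14, 7, 4 and 2 reads at 16 weeks and 0 at 4 weeks, which is at least 1.03-fold higher at 16 weeks (floor of 3 reads over the 4-week group). Without the first 16-week library it was under that level too, at 0.789 of it. Of the 85 seen at 4 weeks only, 58 had 1 read and 81 had 1 to 3 reads.

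Among those 85, 4 miRNAs had more than 3 reads, and none of them had over 6. Their levels are set against the 27.2 CPM that 0 reads at 16 weeks allow (floor of 3 reads over the 16-week group), and the counting error of so few reads at 4 weeks is not in these ratios. miR-7683-5p had 0 reads at 16 weeks and 2, 2, 2 and 0 at 4 weeks, whose mean is 16.6 times that level and 11.8 times without the second 4-week library. miR-130b-5p, with 0 reads at 16 weeks and 0, 3, 0 and 1 at 4 weeks, was at 14.5 times the level but 3.68 times without the second 4-week library. miR-7036b-3p had 0 reads at 16 weeks and 2, 2, 0 and 0 at 4 weeks, 12.5 times the level and 6.29 times without the second 4-week library. miR-5100 had 0 reads at 16 weeks and 2, 1, 0 and 1 at 4 weeks, 11.4 times the level and 8.89 times without the first 4-week library. None of the 4 had a read in all 4-week libraries. miR-185-3p and miR-6342, with 0 reads at 16 weeks, had 3 each at 4 weeks. miR-181c-3p and miR-1191b-3p, also at 0 reads at 16 weeks, had 2 each, which lay in the second 4-week library.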

How the data were processed

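The authors deposited 1 table of CPM, the reads of each miRNA scaled to a common library total. The tools named in the submitters' processing notes are cutadapt 1.13 and edgeR 3.16.5, and the build is mm10. The aligner, the source of the miRNA names and the handling of reads that match several places are not given in the sources used here. From the deposited CPM, whole reads were recovered by dividing by the CPM of 1 read in each library. Of 1629 values above 0 in the 8 libraries, 100% came out whole within a relative tolerance of 1e-06. The 7 miRNAs left out were miR-486a-5p, miR-155-5p, miR-434-3p, miR-299a-3p, miR-376b-3p, miR-346-5p and miR-300-3p, of whose values above 0 whole reads were found in 0 of 23 at 16 weeks and 19 of 20 at 4 weeks.

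Because the depth of the groups differed 7.89-fold, the recovered reads were tested, not the logarithm of CPM. edgeR 4.0.16 (R 4.3.3) was run on the 4 libraries at 16 weeks against the 4 at 4 weeks with filterByExpr (minimum count 10, minimum total 15), TMM scaling and the quasi-likelihood test, two-sided, with Benjamini-Hochberg adjustment over all tested miRNAs and calls at an adjusted p under 0.05. The standard error is the log2 fold change divided by the square root of F. Seeds were tested likewise on summed reads. Shares, thinned numbers, the effective number and arm shares (hairpins with at least 5 reads in both groups and 1 in every library) were tested by exact permutation over 70 assignments. limma 3.58.1 on log2(CPM + 1) and log2(CPM + 100) and DESeq2 1.42.0 were alternatives, with other scalings, no filter, each library left out, a replicate block and all 12 libraries in 1 fit. The tests were checked on simulated data.

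The miRNAs named were the 12 largest changes called in each direction, the 10 most abundant, up to 5 tested and all called members of each of 21 lists, up to 8 per direction with 0 reads in 1 group, and miR-3075-5p, miR-122-5p, miR-192-5p and miR-146a-5p. The comparison, the lists and this rule were chosen with earlier results of these data known. Samples were grouped by their titles.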

Additional observations from a re-analysis of the deposited data

Results flagged for a closer look

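Among 76 groups of 4 libraries examined for a value set apart (Dixon's test, 95% level, which chance passes in about 1 of 20 groups), 2 had one. miR-511-3p stood at 3401 CPM, or 8 reads, in the second 4-week library, against 10495 to 10721 CPM in the other 3 libraries at 4 weeks. miR-1843b-3p stood at 2118 CPM, or 62 reads, in the second 16-week library, against 1283 to 1363 CPM in the other 3 libraries at 16 weeks. The part of depth or handling in either value was not tested.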

How the results depend on the processing

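All 24 called miRNAs kept their direction under the 20 alternatives run (fewer for those that a filter removed), and 10 also kept an adjusted p under 0.05 in each that tested them. Among these 10, miR-802-3p reached the filter level in all libraries of the 16-week group only. For miR-6538, miR-3075-5p (tested in 16 alternatives), miR-6931-5p, miR-7242-3p and miR-1843a-3p it was the 4-week group only. They were tested through the group where they are high, so their place in this count is no independent support. The number higher at 16 weeks, 11, was 6 with library totals, 17 with totals without miR-101b-3p, 17 with limma on log2(CPM + 1) and 7 with limma without a filter; the number lower, 13, was 8 with totals without miR-101b-3p. DESeq2 gave 14 higher and 13 lower, among them all 24. Without each library in turn, 8 to 13 were higher and 10 to 15 lower. The deviations gave no sign that the replicate numbers pair the libraries (correlations of same-numbered deviations -0.31 to 0.29, 0 of 4 best with its own number). With 4 libraries in each group they cannot settle it. With a replicate block, 10 were higher and 11 lower, and the sign-flip p of the single measures could not go below 0.125, so that miR-101b-3p's share (35.3 percentage points), the top-10 share (7.78), the thinned number (-35.1) and the effective number (-10.3) missed the threshold by design. Without miR-101b-3p the top-10 share differed by -14.7, the thinned number by -6.25 and the effective number by 13.2. Leaving out each library moved the top-10 share difference between 5.43 and 9.35. Signs that turned were all of miRNAs not called, and the cause was not tested. With totals without miR-101b-3p these were miR-351-5p (0.087), miR-500-3p (0.015), miR-503-3p (0.12) and miR-92a-3p (0.50). With library totals they were miR-24-2-5p (-0.25) and miR-362-3p (-0.14). With limma they were miR-24-2-5p (-0.17 in each of 3 settings), miR-362-3p (-0.044 with 1 added, -0.045 with 100, -0.044 without a filter) and miR-503-5p (-0.00048, -0.00074 and -0.00048). Without a filter they were miR-503-3p (0.17) and miR-92a-3p (0.55), whose change was also 0.037 with relative log expression, 0.037 with DESeq2, 0.099 with singleton pairing and 0.23 with all 12 libraries. Without 1 library, miR-24-2-5p ran between -0.12 and 0.28, miR-503-3p between -0.60 and 0.023, miR-362-3p between -0.18 and 0.61 and miR-92a-3p between -0.34 and 0.27. The 4-week depth, 2335 to 4464 reads, limits what could be tested.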

Other observations

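Some miRNAs outside the called set stood out by their levels and were chosen after these were seen. miR-1927, which did not pass the filter, had 2, 6, 5 and 3 reads in the 16-week libraries, against 14, 19, 3 and 7 reads in the 4-week libraries, or 53.2 to 213.9 CPM at 16 weeks against 670 to 8078 CPM at 4 weeks, with no overlap. miR-7219-3p, also below the filter, stood the other way, at 1037, 991, 642 and 682 CPM in the 16-week libraries, against 0, 850, 0 and 600 CPM in the 4-week libraries. The groups overlapped for it. Neither has a test in the comparison reported above.

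Among the 29 tested miRNAs that were not called, 6 had an unadjusted p under 0.05 by edgeR. miR-191-3p, miR-203b-3p, miR-322-5p and miR-350-5p had log2 fold changes of 1.22, 1.12, 0.98 and 0.80, and miR-1981-5p and miR-676-3p of -1.18 and -0.67, with adjusted p-values of 0.059 to 0.079. Of these 6, miR-1981-5p alone had groups that did not overlap, at 399 to 786 CPM in the 16-week libraries, against 1117 to 2399 CPM in the 4-week ones.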
